A study of Mus musculus with 11 samples.

Results

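The p53 pathway and the INK4 cell-cycle inhibitors were followed as 10 genes chosen by name in RNA-seq tables of mouse embryonic stem cells (mESCs) and mouse embryonic fibroblasts (MEFs) with and without Atxn7l3. The genes are Trp53, Mdm2, Cdkn1a, Ccng1, Cdkn2a, Cdkn2b, Bax, Bbc3, Pmaip1 and Perp. They are 10 of the 31518 genes listed for mESCs and 10 of the 29450 listed for MEFs, and each was found once in both tables. All 10 passed the filter on low counts and all 10 were expressed by the study's measure in both cell types, which is a median above 10 normalized reads per kb of transcript.

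ATXN7L3 is an adaptor of the deubiquitylation modules that take ubiquitin off histone H2B, and the study asked how steady-state mRNA changes when these modules are lost. Poly(A)+ RNA was sequenced from 2 WT (Atxn7l3+/+) and 3 Atxn7l3-/- mESC lines and from 3 WT and 3 Atxn7l3-/- MEF cultures, 11 libraries in all, of DBA/2 x C57BL/6 background and without any specific treatment. Each mESC line came from its own blastocyst and was grown in serum, LIF and 2 inhibitors (PD0325901 and CHIR99021), on feeder cells that were removed after the first passages. Each MEF culture came from its own E10.5 embryo without head and gastrointestinal tract. By the study's description, the Atxn7l3-/- allele is a germline null made by crossing carriers of a targeted allele with a deleter strain. Whether every cell of an Atxn7l3-/- line or culture carries it was not tested here. The study excluded 1 further WT mESC dataset, which was not analysed here.

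p53, the product of Trp53, is a transcription factor that is kept low by its ubiquitin ligase MDM2 and stabilised by stress. It switches on genes of arrest, such as Cdkn1a, and genes of cell death, such as Bax, Bbc3 and Pmaip1, and it switches on Mdm2 itself, so that the pathway holds a negative feedback loop. The INK4 proteins block the cyclin D-dependent kinases, and the Cdkn2a locus makes both an INK4 protein and ARF, which inhibits MDM2. In fibroblasts, the INK4-ARF locus is known for its rise with passage in culture.

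The p53 half-site consensus was searched in the RefSeq promoter windows (250 bases before to 50 after a start, GRCm38.p6, which is mm10) to show which of these genes carry a full site close to a start. The consensus has 10 letters and reads the same on both strands, and a full site was taken as 2 half-sites at most 13 bases apart with at most 2 mismatches over the 20 letters and the core C and G of each half-site kept. Windows of 8 of the 10 genes were searched, 12 windows in all. Pmaip1 and Perp were not searched, so the search does not tell whether they carry a site. A site was found in 3 genes, and they are printed here 5′ to 3′ on the gene's strand with both half-sites in capitals.
Cdkn1a, chr17:29090886-29090957, plus strand: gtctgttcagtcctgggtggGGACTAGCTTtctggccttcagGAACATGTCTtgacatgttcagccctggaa
Ccng1, chr11:40755442-40755501, minus strand: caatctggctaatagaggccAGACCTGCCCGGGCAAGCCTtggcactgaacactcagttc
Bax, chr7:45467070-45467134, minus strand: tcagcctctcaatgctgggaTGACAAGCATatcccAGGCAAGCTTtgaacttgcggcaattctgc

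In each window only the pair of half-sites with the fewest mismatches was kept. The Cdkn1a pair has 0 mismatches with 12 bases between its half-sites. It begins 73 bases before the upstream of the gene's 2 RefSeq starts, which lie 2790 bases apart. The second Cdkn1a half-site, GAACATGTCT, is also followed directly by tgacatgttc. These 2 half-sites make a further full site with 1 mismatch and no base between them, which is not in capitals as a whole. The Ccng1 site has 1 mismatch, no base between the half-sites and begins 195 bases before the start. The Bax site has 2 mismatches, 5 bases between the half-sites and begins 216 bases before the start. Over all 32851 windows, 0.0731% hold a site without mismatch, 0.627% one with at most 1 mismatch and 4.09% one with at most 2. No such letters were found in the windows of Trp53, Mdm2, Cdkn2a, Cdkn2b and Bbc3. These are matches of letters and not measured binding.

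In mm10, the genes lie on 6 chromosomes, and all are protein-coding. Cdkn2a (chr4:89274471-89294653) and Cdkn2b (chr4:89306289-89311032) are neighbours on the minus strand with 11635 bases between them, and 2 RefSeq starts of Cdkn2a lie 12427 bases apart. Because the INK4 and ARF transcripts of Cdkn2a share their later exons, a count per gene does not tell them apart. Trp53 (chr11:69580359-69591873) and Ccng1 (chr11:40748552-40755311) are on the same chromosome as Atxn7l3. Cdkn1a shares 273 exonic bases with an antisense gene and Bax shares 192 with a gene on its own strand, and both of these partners had 0 counts in every library.

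Library totals ranged from 34515342 to 49602605 counts, and the smallest count of any of the 10 genes in any library was 141 (Cdkn2b in 1 WT mESC library). Levels are given as counts per 1000000 (CPM), normalized by TMM over the 11 libraries. Atxn7l3, which checks the labels, was at 197 and 203 CPM in the 2 WT mESC libraries and between 0.833 and 3.34 CPM in the 3 Atxn7l3-/- ones. In MEFs it was between 86.6 and 117 CPM in WT and between 55.5 and 73.3 CPM in Atxn7l3-/-, a log2 difference of -0.74 with an adjusted p of 0.0715, so the MEF libraries are called Atxn7l3-/- here by their labels. At the protein level, a different measure, the study reported that ATXN7L3 could not be detected in its Atxn7l3-/- mESCs or MEFs. The pluripotency gene Pou5f1 was between 805 and 1174 CPM in the mESC libraries and was not listed in the MEF table, and the collagen gene Col1a1 was between 9.66 and 190 CPM in mESCs and between 2448 and 14228 CPM in MEFs.

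Several libraries stood apart from the others of their group. Of the mESC lines, Atxn7l3-/- replicates 1 and 2 had 49.9 and 45.9 CPM of Xist and at most 2.96 CPM of the Y-linked Ddx3y. The other 3 mESC libraries had between 80.5 and 192 CPM of Ddx3y. The split was not clean, because Xist was also at 9.73 and 23.0 CPM in the WT mESC libraries. Atxn7l3-/- mESC replicate 3 had 2.39 CPM of Xist and 0.586 CPM of the Y-linked Kdm5d, against 5.92 and 22.8 CPM of Kdm5d in WT mESCs. WT MEF replicate 3 had 336 CPM of Xist and 0.244 CPM of Ddx3y, and the other 5 MEF libraries had between 66.4 and 270 CPM of Ddx3y. All 3 Atxn7l3-/- MEF libraries had a high level of mesothelial markers, summed over 7 markers to between 6114 and 9047 CPM against 19.4 to 49.2 CPM in WT MEFs. WT MEF replicate 2 was low in many p53 target genes, with values given after the comparisons. Because these are bulk libraries, fewer cells of a type and less RNA per cell cannot be told apart.

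Trp53 was the gene of the 10 whose mRNA fell in Atxn7l3-/- mESCs. Its level was 443 and 510 CPM in the WT mESC libraries and 176, 249 and 158 CPM in the Atxn7l3-/- ones. Every Atxn7l3-/- library was below both WT libraries. This was a log2 fold change of -1.25 ± 0.22 (SE), a 2.38-fold lower level, with an adjusted p of 0.0287 (edgeR quasi-likelihood test, Benjamini-Hochberg over 17800 genes). It was the only call among the 10 genes (0 higher, 1 lower), where 6.96% of all genes tested were called, 3.08% higher and 3.88% lower. Against the 1 Atxn7l3-/- line with Y-linked reads alone the value was -1.51 (adjusted p 0.00837, with 20.8% of all genes called), an alternative chosen after seeing the data that assumes this line to vary like the WT lines.

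The Trp53 call rested on few libraries. The adjusted p was 0.0938 without Atxn7l3-/- replicate 1, 0.166 without WT replicate 1 and 0.185 without WT replicate 2, with log2 fold changes between -1.13 and -1.43 over all 5 libraries left out in turn. In MEFs, Trp53 was at 105, 162 and 156 CPM in WT and at 120, 126 and 126 CPM in Atxn7l3-/-. The MEF groups overlapped, and the log2 fold change was -0.19 with a 95% interval from -0.70 to 0.31 (adjusted p 0.548). The effect in MEFs minus that in mESCs was 1.11 (interval 0.37 to 1.85), with an adjusted p of 0.0568.

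The other genes were mostly at higher mean levels in Atxn7l3-/- mESCs, and none of them passed the adjusted test. Of these 9 genes, 8 had a log2 fold change above 0, where 52.3% of all genes tested did. For 7 of them every Atxn7l3-/- library was above both WT libraries, and 23.0% of all genes tested had that order, while the opposite order, which Trp53 had, was found for 26.7%. At an unadjusted p under 0.05, 7 of the 10 genes passed, Trp53 included, and 5309 of the 17800 genes tested did. The median log2 fold change of the 10 genes was 0.73, and that of all genes was 0.04.

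**Figure D1:**
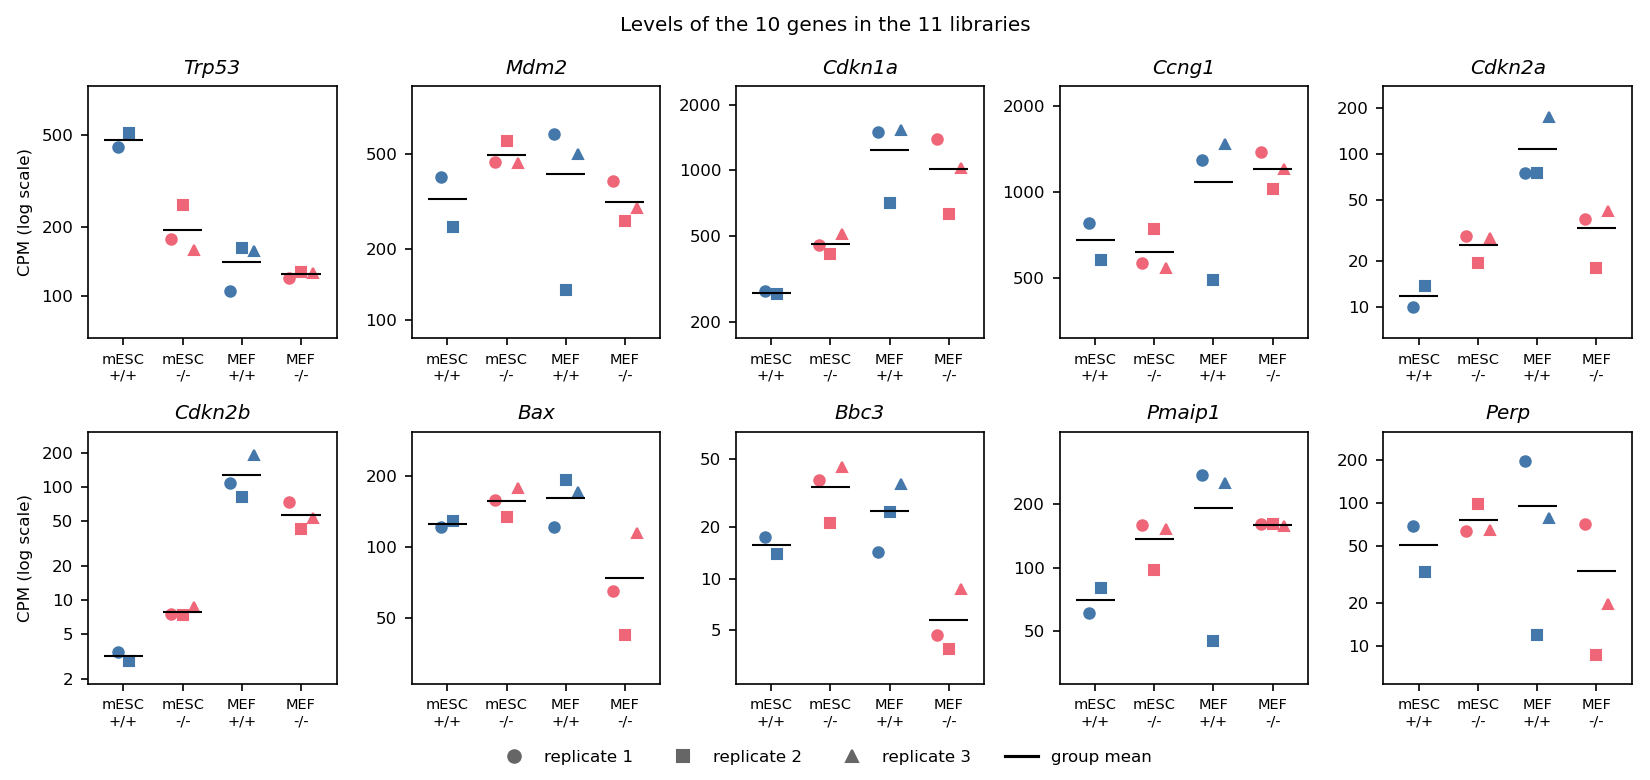
Normalized level in CPM (vertical axis, log scale) of each of the 10 genes in the 11 libraries, by cell type and Atxn7l3 genotype; each symbol is 1 library, with its shape giving the replicate number, and bars are group means. Trp53 is highest in both WT mESC libraries (443 and 510 CPM), and WT MEF replicate 2 (square) is the lowest WT MEF library for Mdm2, Cdkn1a, Ccng1, Pmaip1 and Perp.

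Mdm2, which encodes the ligase that degrades p53, was at 400 and 248 CPM in WT mESCs and at 466, 570 and 458 CPM in Atxn7l3-/- mESCs. The groups did not overlap, although the WT libraries differed 1.61-fold from each other. Its log2 fold change of 0.66 (interval 0.07 to 1.25) had an adjusted p of 0.133. In MEFs, Mdm2 was at 607, 135 and 504 CPM in WT and at 385, 263 and 298 CPM in Atxn7l3-/-. The Atxn7l3-/- libraries lay between the WT ones, with a log2 fold change of -0.42 (interval -1.67 to 0.83, adjusted p 0.602).

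Cdkn1a encodes p21, the kinase inhibitor through which p53 arrests the cell cycle. It was at 277 and 270 CPM in WT mESCs and at 455, 412 and 509 CPM in Atxn7l3-/- mESCs. The groups were well apart, with a log2 fold change of 0.80 (interval 0.33 to 1.26), and the adjusted p was 0.0550. In MEFs it was at 1501, 708 and 1535 CPM in WT and at 1399, 630 and 1031 CPM in Atxn7l3-/-. Replicate 2 was the lowest of both MEF groups, and the log2 fold change was -0.31 (interval -1.33 to 0.70, adjusted p 0.635).

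Ccng1, a p53 target that encodes cyclin G1, differed little between genotypes. It was at 780 and 575 CPM in WT mESCs and at 565, 738 and 539 CPM in Atxn7l3-/- mESCs. In MEFs it was at 1290, 493 and 1463 CPM in WT and at 1377, 1026 and 1196 CPM in Atxn7l3-/-. The groups overlapped in both cell types. Log2 fold changes were -0.10 (interval -0.63 to 0.43, adjusted p 0.802) in mESCs and 0.13 (interval -0.89 to 1.15, adjusted p 0.853) in MEFs.

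Cdkn2a, the INK4-ARF gene, was low in mESCs. It was at 10.0 and 13.7 CPM in the WT libraries and at 29.05, 19.5 and 28.4 CPM in the Atxn7l3-/- ones. The Atxn7l3-/- libraries were all above the WT ones, with a log2 fold change of 1.17 (interval 0.46 to 1.89) and an adjusted p of 0.0606. In MEFs the order was the opposite, with 75.6, 75.4 and 175 CPM in WT and 37.7, 18.1 and 42.6 CPM in Atxn7l3-/-. The MEF groups did not overlap either, and the log2 fold change was -1.74 (interval -2.84 to -0.63) with an adjusted p of 0.0621. With the replicate number as a block, the MEF value was -1.72 with an adjusted p of 0.0254, which passed.

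Cdkn2b, which encodes the second INK4 inhibitor of that locus, followed the same order. It was at 3.47 and 2.90 CPM in WT mESCs and at 7.53, 7.29 and 8.65 CPM in Atxn7l3-/- mESCs. It was at 107.5, 81.7 and 191 CPM in WT MEFs and at 73.5, 42.7 and 52.8 CPM in Atxn7l3-/- MEFs. In neither cell type did the groups overlap. Log2 fold changes were 1.34 (interval 0.49 to 2.20, adjusted p 0.0661) in mESCs and -1.19 (interval -2.05 to -0.32, adjusted p 0.0818) in MEFs, where it was -1.12 with the block (adjusted p 0.0628).

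The difference between the cell types itself passed for both genes of the INK4-ARF locus. The MEF effect minus the mESC effect was -2.84 ± 0.62 (SE) for Cdkn2a with an adjusted p of 0.0200, and -2.46 ± 0.48 for Cdkn2b with an adjusted p of 0.0145 (edgeR interaction of cell type and genotype, 19326 genes). Over the 10 genes, 3 differences passed (0 higher, 3 lower in MEFs), where 11.4% of all genes tested were called, 6.14% higher and 5.27% lower. The estimate was above 0 for 2 of the 10 genes and below 0 for 8, where 47.2% of all genes were above 0. This test uses the same libraries as the comparison within each cell type. Atxn7l3 mRNA itself did not fall equally, with log2 fold changes of -6.65 in mESCs and -0.74 in MEFs. That difference was 5.97 by the same test (adjusted p 0.000664). Cdkn2a and Cdkn2b passed with the block and after each library's trend over GC content was taken out, as shown further on, and neither passed without either 1 of the 2 WT mESC libraries (adjusted p from 0.0703 to 0.109).

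Bbc3, which encodes the death-promoting BH3 protein PUMA, was the gene of the 10 that fell in Atxn7l3-/- MEFs. It was at 14.4, 24.5 and 35.5 CPM in WT MEFs and at 4.67, 3.89 and 8.68 CPM in Atxn7l3-/- MEFs. Every Atxn7l3-/- library was below every WT library. This was a log2 fold change of -2.11 ± 0.48 (SE), a 4.31-fold lower level, with an adjusted p of 0.0439, and with the block it was again -2.11, with an adjusted p of 0.0222. Without the block, Bbc3 was the only call among the 10 genes in MEFs (0 higher, 1 lower), where 9.41% of all genes tested were called, 5.01% higher and 4.39% lower. It did not pass after the GC correction (log2 fold change -0.40, adjusted p 0.244), nor without any 1 of the 3 WT libraries or Atxn7l3-/- replicate 1 or 2, where the adjusted p was between 0.0552 and 0.135.

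In mESCs, Bbc3 was at 17.4 and 14.0 CPM in WT and at 37.5, 21.0 and 44.9 CPM in Atxn7l3-/-. The groups did not overlap, and the log2 fold change was 1.19 (interval 0.34 to 2.05) with an adjusted p of 0.0842. The MEF effect minus the mESC effect was -3.24 ± 0.66 (SE, adjusted p 0.0165) and passed. After the GC correction this difference was -1.22 with an adjusted p of 0.0522.

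Bax encodes a pore-forming protein of the mitochondrial outer membrane. It was at 122 and 129 CPM in WT mESCs and at 158, 133 and 177 CPM in Atxn7l3-/- mESCs. In MEFs it was at 122, 191 and 171 CPM in WT and at 65.3, 42.3 and 114 CPM in Atxn7l3-/-. The groups did not overlap in either cell type, by a small margin in MEFs (122 against 114 CPM). The log2 fold change was 0.37 (interval -0.11 to 0.85, adjusted p 0.266) in mESCs and -1.13 (interval -2.06 to -0.19, adjusted p 0.108) in MEFs.

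Pmaip1, which encodes the BH3 protein NOXA, was at 60.9 and 80.3 CPM in WT mESCs and at 160, 97.3 and 153 CPM in Atxn7l3-/- mESCs. The groups did not overlap, and the log2 fold change was 1.01 (interval 0.36 to 1.67, adjusted p 0.0693). In MEFs it was at 275, 45.1 and 253 CPM in WT and at 161, 161 and 158 CPM in Atxn7l3-/-. The Atxn7l3-/- cultures were nearly level with each other and lay within the WT range, with a log2 fold change of -0.28 (adjusted p 0.771) and an interval that reached from -1.70 to above 1.

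Perp, which encodes a membrane protein of cell death and cell adhesion, varied widely among replicates. It was at 69.4 and 32.9 CPM in WT mESCs and at 64.1, 98.5 and 64.9 CPM in Atxn7l3-/- mESCs. In MEFs it was at 198, 11.9 and 78.7 CPM in WT, a 16.7-fold range, and at 71.95, 8.62 and 19.5 CPM in Atxn7l3-/-. The groups overlapped in both cell types. Log2 fold changes were 0.60 (interval -0.20 to 1.41, adjusted p 0.281) in mESCs and -1.58 (interval -4.15 to 0.99, adjusted p 0.339) in MEFs. Within each same-numbered pair of MEF libraries the Atxn7l3-/- library was the lower, and with the block the value was -1.34 (adjusted p 0.0618). It was -0.46 without WT replicate 1 and -2.77 without Atxn7l3-/- replicate 1.

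**Figure D2:**
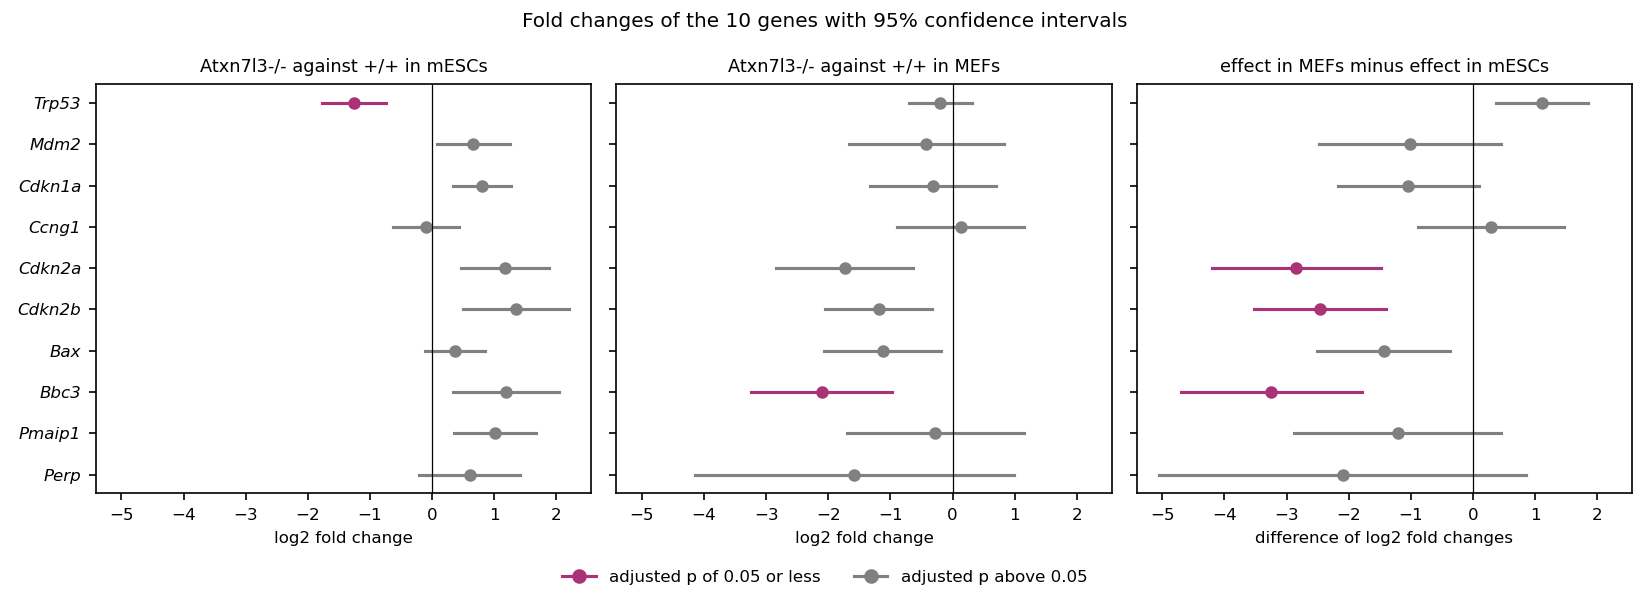
Log2 fold change (horizontal axis) of each gene in Atxn7l3-/- against WT mESCs, in Atxn7l3-/- against WT MEFs, and the difference of the 2, with points for the edgeR estimate and lines for the 95% confidence interval. Calls (purple) are Trp53 in mESCs (-1.25), Bbc3 in MEFs (-2.11) and the differences of Cdkn2a, Cdkn2b and Bbc3 (-2.84, -2.46 and -3.24).

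Over the 10 genes, 9 had a log2 fold change below 0 in MEFs and 1 above, where 47.5% of all genes tested were above, with a median of -0.77 against -0.06 for all genes. For 4 of them (Cdkn2a, Cdkn2b, Bax and Bbc3) every Atxn7l3-/- library was below every WT library, and 19.7% of all genes tested had that order and 20.1% the opposite one. At an unadjusted p under 0.05, these 4 of the 10 genes passed, and 5166 of the 15958 genes tested did. DESeq2 called the same 4, with 24.7% of all genes called, and in mESCs it called Trp53, Cdkn1a, Cdkn2a, Cdkn2b, Bbc3 and Pmaip1, with 19.3% of all genes called. With the block, edgeR called Cdkn2a and Bbc3 in MEFs, with 14.0% of all genes called. In mESCs, 5 genes passed without a filter on low counts (9.63% of all genes called) and 5 without Atxn7l3-/- replicate 2 (12.8%). With the study's thresholds of a 2-fold change and expression added, edgeR left Trp53 in mESCs and Bbc3 in MEFs, and DESeq2, the study's tool, left Trp53, Cdkn2a, Cdkn2b and Bbc3 in mESCs and Cdkn2a, Cdkn2b, Bax and Bbc3 in MEFs.

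The MEF fold changes of all genes moved with the GC content of their transcripts, with a Spearman rho of -0.39 across 15944 genes, which share their libraries and are not independent. The median log2 fold change was 0.43 for genes under 40% GC and -1.12 for genes of 60% GC or more. Bbc3, at 68.0% GC, was above 99.9% of the genes tested in GC content, and Cdkn2a and Bax, both at 59.0 to 59.1%, were above 93.2% and 93.4%. When each library's trend over GC was taken out, the log2 fold change in MEFs was -0.40 for Bbc3, -0.98 for Cdkn2a, -0.76 for Cdkn2b and -0.42 for Bax, and none of the 10 genes passed (adjusted p of 0.147 or more, with 7.77% of all genes called). With the block as well, Perp alone passed, at -1.52 with an adjusted p of 0.0481 (10.7% of all genes called). The part of GC content in these MEF values was not tested further.

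**Figure D3:**
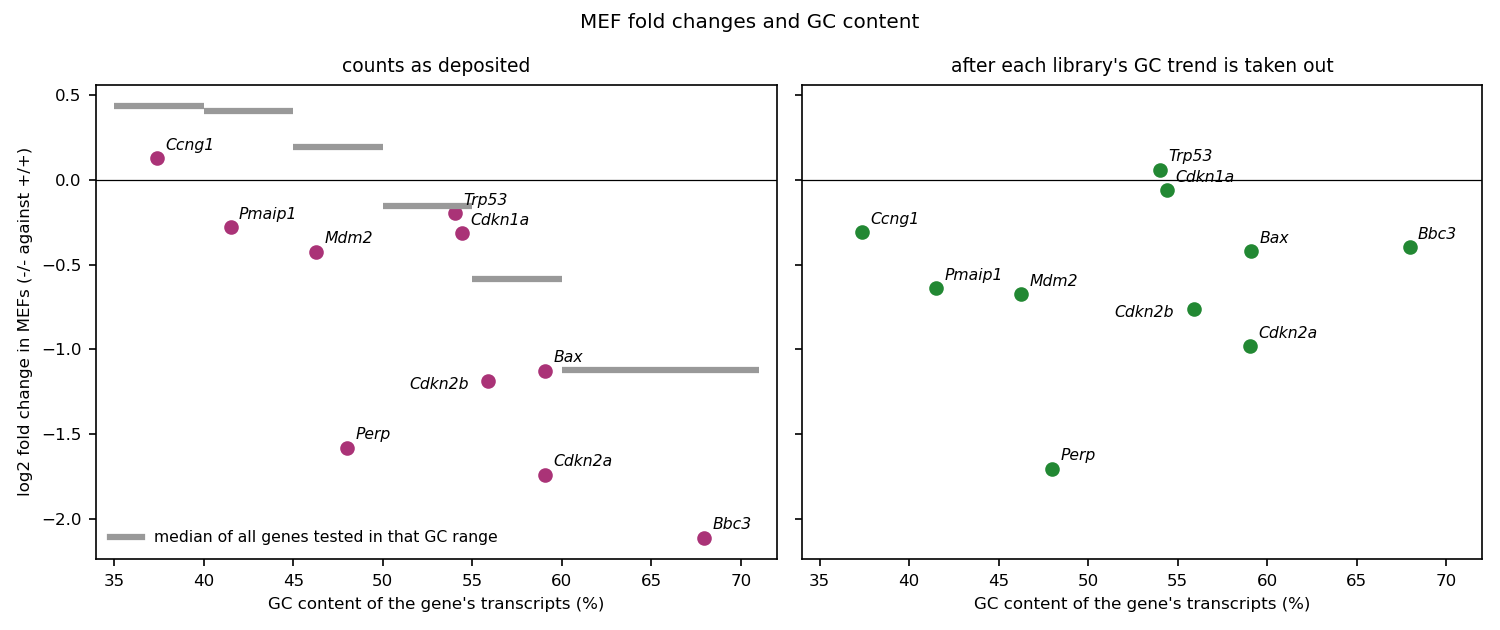
Log2 fold change in MEFs (vertical axis, Atxn7l3-/- against WT) over the GC content in % of each gene's transcripts (horizontal axis), for the counts as deposited (left, with grey bars for the median of all genes tested in each GC range) and after each library's GC trend was taken out (right). The 4 genes that were lowest beside Perp on the left, Bbc3, Cdkn2a, Cdkn2b and Bax, have 55.9 to 68.0% GC and move up on the right, Bbc3 from -2.11 to -0.40.

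In mESCs the trend over GC was weaker and of the other sign (rho 0.17), and Trp53 was at -1.38 with an adjusted p of 0.0275 after the same correction. The other 9 genes stayed without a call there. The difference between the cell types passed for Trp53 (1.46), Cdkn2a (-1.91) and Cdkn2b (-1.93) after the correction, with adjusted p values of 0.0253, 0.0378 and 0.0335.

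WT MEF replicate 2 was low in p53 target genes and not in Trp53. Of the 7 p53 targets among the 10 genes, 5 were lowest of the 3 WT libraries in replicate 2, and the exceptions were Bax and Bbc3. Against the mean of the other 2 WT libraries, Perp was 11.7-fold lower, Pmaip1 5.86-fold, Mdm2 4.13-fold, Ccng1 2.79-fold and Cdkn1a 2.14-fold. Of 29 other p53 target genes, 21 were lowest in replicate 2, where 39.0% of all genes tested were, and their median log2 ratio to the other 2 libraries was -0.59 against -0.04 for all genes. Trp53 in that library was 162 CPM, the highest of the 3. Against the same mean, Cdkn2a and Cdkn2b were also lower there, 1.66-fold and 1.82-fold. Among the Atxn7l3-/- MEFs, replicate 2 was the lowest for Mdm2, Cdkn1a, Ccng1, Bax, Bbc3, Perp, Cdkn2a and Cdkn2b, and not for Trp53 or Pmaip1.

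**Figure D4:**
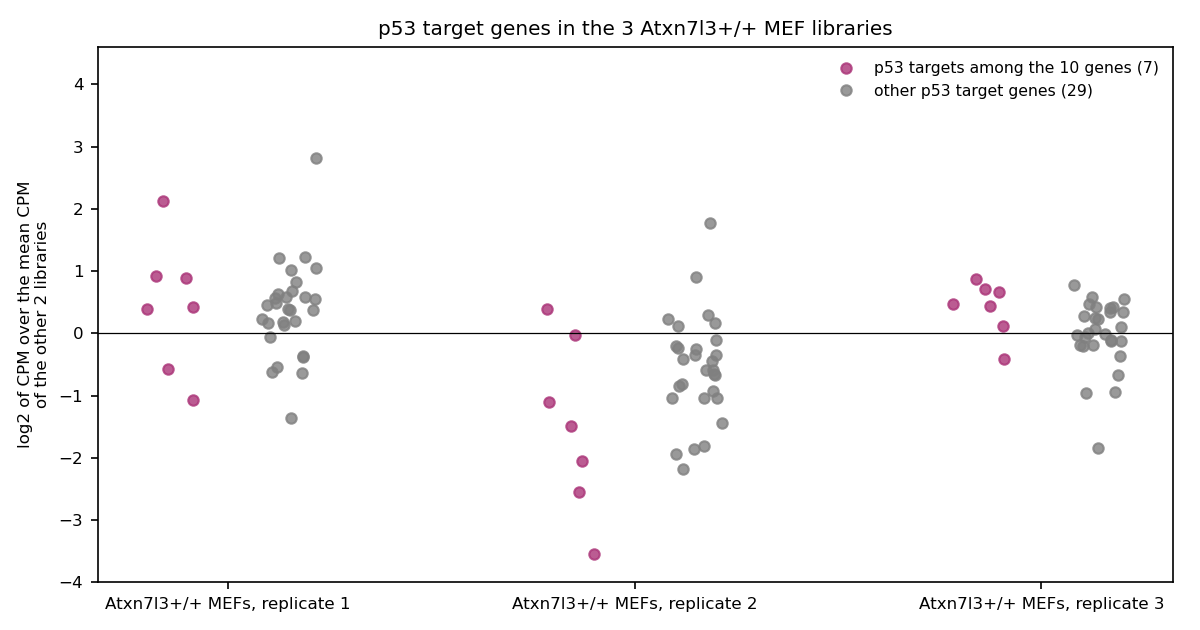
Log2 ratio of a library's CPM to the mean CPM of the other 2 WT MEF libraries (vertical axis) for the 7 p53 targets among the 10 genes (purple) and the 29 other p53 target genes (grey); each point is 1 gene. Replicate 2 lies lowest, with a median of -0.59 for the 29 genes against 0.39 and 0.01 in replicates 1 and 3.

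Without WT MEF replicate 2, the log2 fold change in MEFs was -0.82 for Mdm2 (adjusted p 0.0923) and -0.72 for Pmaip1 (adjusted p 0.0603), against -0.42 and -0.28 with it. The difference between the cell types then passed for 6 genes (Trp53, Mdm2, Cdkn2a, Cdkn2b, Bbc3 and Pmaip1). The share of all genes called without this library was not counted, so these calls are not set against all genes. The part of this library in the MEF results was not otherwise tested.

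The levels also differed by cell type. In WT cells, Cdkn2b was 39.7-fold higher in MEFs than in mESCs (log2 difference 5.31, adjusted p 1.16e-05), Cdkn2a was 9.18-fold higher (3.20, adjusted p 0.000493) and Cdkn1a was 4.57-fold higher (2.19, adjusted p 0.00138). Trp53 was 3.38-fold lower in MEFs (-1.76, adjusted p 0.000263). These were the calls among the 10 genes (3 higher, 1 lower), where 53.9% of all genes tested were called, 26.8% higher and 27.1% lower. Without WT MEF replicate 2 there were 7 calls, with Mdm2, Ccng1 and Pmaip1 added. The GC correction added Ccng1 (1.00, adjusted p 0.0256) and Pmaip1 (1.51, adjusted p 0.0355), the block added Perp (1.81, adjusted p 0.0338, against 0.91 and 0.459 without it), and DESeq2 added Pmaip1 (adjusted p 0.0343). The shares of all genes called in these alternatives were not counted. The tables were deposited separately for the 2 cell types, so cell type and any difference between the runs cannot be told apart.

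Between Atxn7l3-/- MEFs and Atxn7l3-/- mESCs, 6 of the 10 genes passed, and 61.0% of all genes tested did, 29.5% higher and 31.5% lower in MEFs. Cdkn2b (2.85), Cdkn1a (1.15) and Ccng1 (0.97) were higher in MEFs on the log2 scale, with adjusted p values of 4.94e-05, 0.0134 and 0.0363. Bbc3 (-2.58), Bax (-1.08) and Trp53 (-0.65) were lower, with adjusted p values of 0.000603, 0.0139 and 0.0290. Of these, Ccng1 and Trp53 did not pass with the block, and Trp53, Cdkn1a, Ccng1 and Bax did not pass without Atxn7l3-/- MEF replicate 1, where Perp did (-2.43, adjusted p 0.0460). Trp53 also failed without Atxn7l3-/- MEF replicate 2 or 3 or Atxn7l3-/- mESC replicate 2 (adjusted p from 0.0578 to 0.121). Ccng1 also failed without Atxn7l3-/- MEF replicate 3 or Atxn7l3-/- mESC replicate 1 or 3 (adjusted p from 0.0630 to 0.107). Cdkn2a, 9.18-fold apart in WT cells, differed by 0.35 on the log2 scale (interval -0.52 to 1.22, adjusted p 0.453) in Atxn7l3-/- cells, and by 1.05 with an adjusted p of 0.0152, which passed, after the GC correction. That correction ended the calls of Bax (-0.42, adjusted p 0.0910) and Trp53 (-0.21, adjusted p 0.424).

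Ordered over the 4 groups, Trp53 was highest in WT mESCs (477 ± 47.4 CPM, SD, n = 2) and then in Atxn7l3-/- mESCs (194 ± 48.0, n = 3), which overlapped with WT MEFs (141 ± 31.2, n = 3), which in turn overlapped with Atxn7l3-/- MEFs (124 ± 3.61, n = 3). Cdkn2b was ordered WT MEFs (127 ± 56.9), Atxn7l3-/- MEFs (56.3 ± 15.7), Atxn7l3-/- mESCs (7.82 ± 0.725) and WT mESCs (3.19 ± 0.403), and no neighbours in that order overlapped. Cdkn2a had the same order, with overlap only between Atxn7l3-/- MEFs and Atxn7l3-/- mESCs. Mdm2, Ccng1 and Perp overlapped between all neighbours in their order.

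Levels of different genes were compared per length, as CPM per kb of the deposited median transcript length. Cdkn1a was the highest of the 10 in both MEF groups (1456 CPM per kb in WT), and Cdkn2b the lowest in both mESC groups (2.29 CPM per kb in WT). Bbc3 was the lowest in both MEF groups (36.3 CPM per kb in WT and 8.42 in Atxn7l3-/-). Mdm2 was the highest in mESCs by this length of 919 bases, and rank 5 in WT mESCs when its 5083 exonic bases were used, so its place depends on the length taken. Per kb of exonic bases, Ccng1 (342) was above Cdkn1a (287 CPM per kb) in Atxn7l3-/- MEFs.

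After each cell type was centred on its own mean, the genes whose log2 CPM followed Trp53 most closely over the 11 libraries were 1700123O20Rik, Rbm15b and Nfyc (Pearson r 0.97, 0.97 and 0.96). Cdkn1a was followed by Rgs12, Gtf3c1 and Rhbdd2 (r 0.98, 0.92 and 0.92), and Cdkn2a by Ctxn1, Metrn and Grk2 (r 0.98, 0.98 and 0.97). These are descriptions over 11 libraries that share their groups, taken as the top of 8279 genes. Among the 10 genes, the closest pairs were Cdkn2a with Bbc3 (r 0.93), Bax with Bbc3 (r 0.91), Mdm2 with Perp (r 0.86) and Cdkn2a with Bax (r 0.86). These r values are without the GC correction, and Bbc3, Bax and Cdkn2a had 68.0, 59.1 and 59.0% GC. The part of GC content in them was not tested. Trp53 ran at r -0.60 with Cdkn1a and at -0.60 with Pmaip1.

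Other genes of the pathway were counted from lists, where 6.96% of all genes tested were called in mESCs, 9.41% in MEFs and 11.4% for the difference between the cell types. Of 29 further p53 target genes, all tested in both cell types, 3 rose and 1 fell in Atxn7l3-/- mESCs, with a median log2 fold change of 0.36 against 0.04 for all genes. The DNA repair endonuclease gene Ercc5 rose by 1.12 (adjusted p 0.0392), the receptor gene Eda2r by 1.12 (adjusted p 0.0499) and the death receptor gene Tnfrsf10b by 1.05 (adjusted p 0.0469) on the log2 scale. The 14-3-3 sigma gene Sfn had a log2 fold change of -1.73 (adjusted p 0.0459). In MEFs, 2 rose and 1 fell, with a median of 0.11 against -0.06. The antiproliferative gene Btg2 rose by 1.83 (adjusted p 0.0179) and the metabolic regulator Tigar by 1.26 (adjusted p 0.0455, 0.0535 with the block). The AKT inhibitor gene Phlda3 had a log2 fold change of -1.27 (adjusted p 0.0358), and -0.56 with an adjusted p of 0.112 after the GC correction. The block moved the MEF counts to 1 that rose and 4 that fell. Against the 1 Atxn7l3-/- mESC line with Y-linked reads, 5 rose and 4 fell, and Eda2r did not pass (0.62, adjusted p 0.0877). Eda2r also did not pass with RLE or upper-quartile normalization or when each library had to hold 10 counts of a gene or more (adjusted p from 0.0508 to 0.0540). Sfn did not pass after the GC correction (adjusted p 0.0541). Between the cell types, the difference passed for Tigar (1.88, adjusted p 0.0151), Btg2 (1.69, adjusted p 0.0462) and Phlda3 (-1.86, adjusted p 0.0149). Of the 29 differences, 11 were above 0 and 18 below, with a median of -0.06 against -0.09 for all genes. Btg2 did not pass there with the block (adjusted p 0.111), and Phlda3 did not after the GC correction (-0.98, adjusted p 0.0638).

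Of the 18 regulators and relatives of p53 tested, 1 rose and 0 fell in Atxn7l3-/- mESCs, the ubiquitin ligase gene Rchy1 at 1.08 (adjusted p 0.0406). In MEFs, 1 rose, the checkpoint kinase gene Chek2 at 1.33 (adjusted p 0.0380), and 1 fell, the p53 relative Trp63 at -6.74 (adjusted p 0.0220). The difference between the cell types passed for Atm (1.69, adjusted p 0.0455), Chek2 (1.59, adjusted p 0.0247) and Atr (1.33, adjusted p 0.0388), which encode kinases of the DNA damage response. Each value is the effect of genotype in MEFs minus that in mESCs, and in level all 3 genes were lower in WT MEFs than in WT mESCs (-1.79, -1.98 and -1.80). Atm and Atr did not pass with the block (adjusted p 0.0850 and 0.0969) or after the GC correction (1.18 and 0.74, adjusted p 0.0788 and 0.0719).

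Of the 15 other genes of CDK inhibition and the RB pathway, 2 rose and 1 fell in mESCs and 1 rose in MEFs. With the block, 2 were called higher and 1 lower in MEFs. The retinoblastoma gene Rb1 (1.04, adjusted p 0.0409) and its relative Rbl2 (1.38, adjusted p 0.0263) rose in Atxn7l3-/- mESCs, and the cyclin D1 gene Ccnd1 fell (-1.39, adjusted p 0.0317). In Atxn7l3-/- MEFs the relative Rbl1 rose (1.28, adjusted p 0.0290). The difference between the cell types passed for Cdk6 (2.41), E2f2 (2.33) and E2f3 (2.21), with adjusted p values of 0.0248, 0.0333 and 0.0336. None of the 4 other CDK inhibitor genes of the list, Cdkn1b, Cdkn1c, Cdkn2c and Cdkn2d, was called in either genotype comparison by edgeR without the block.

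Of 15 regulators of the INK4-ARF locus, the T-box repressor gene Tbx3 fell in Atxn7l3-/- mESCs (-1.15, adjusted p 0.0270) and in Atxn7l3-/- MEFs (-2.04, adjusted p 0.0443), and its relative Tbx2 fell in MEFs (-2.93, adjusted p 0.0175). Tbx2 did not pass in MEFs after the GC correction (adjusted p 0.0895). No Polycomb gene of the list was called in either genotype comparison by edgeR without the block. DESeq2 called 3 genes of the list lower in mESCs and 4 lower in MEFs, and the block gave 3 lower in MEFs. The difference between the cell types passed for Suz12 (1.30, adjusted p 0.0498), a Polycomb subunit, which did not pass with the block (adjusted p 0.151) or after the GC correction (0.70, adjusted p 0.144), and for Tbx2 (-4.53, adjusted p 0.0130), which did not pass after the GC correction (-3.10, adjusted p 0.0690). The calls of the genes named from these 4 lists were lost in mESCs, all 9 of them, without Atxn7l3-/- replicate 1 and without either WT library, and in MEFs, all 8 of them, without Atxn7l3-/- replicate 1.

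Of the BCL2 family, to which Bax, Bbc3 and Pmaip1 belong, the other 12 genes were tested in mESCs and 10 of them in MEFs, and edgeR called 0 in each. At an unadjusted p under 0.05, 2 passed in mESCs and 1 in MEFs, and DESeq2 called 1 (lower) in mESCs and 0 in MEFs. With the block, 1 was called higher and 1 lower in MEFs.

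Proliferation markers moved beside these genes and are given for that reason. Their summed level over 15 markers was between 3497 and 5232 CPM in WT mESCs and between 2876 and 3421 CPM in Atxn7l3-/- mESCs, with all 15 log2 fold changes below 0 and 1 call, Plk1 (-1.12, adjusted p 0.0332). In MEFs the sum was between 904 and 1662 CPM in WT and between 1707 and 2677 CPM in Atxn7l3-/-, with 14 of 15 above 0 and 1 call, Mki67 (1.20, adjusted p 0.0411, and 0.0612 after the GC correction). With the block, 4 of the 15 markers were called higher in MEFs. Their part in the levels of the 10 genes was not tested.

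Markers of other cell types were summed in the same way. The 10 MEF markers, which feeder cells also express, summed to between 1413 and 2470 CPM in WT mESCs and to between 3060 and 5184 CPM in Atxn7l3-/- mESCs, where Col1a1 rose by 2.54 (adjusted p 0.0469, and 0.0554 after the GC correction). In MEFs, the mesothelial markers Upk3b (1712 to 2304 CPM against 4.198 to 18.3 CPM in WT) and Wt1 (114 to 233 CPM against 0.959 to 3.00 CPM) were high in all 3 Atxn7l3-/- cultures, and 6 of the 7 mesothelial markers passed, all higher. Of 8 macrophage markers, summed to between 264 and 588 CPM in WT and between 139 and 941 CPM in Atxn7l3-/- MEFs, 0 passed in edgeR, and 0 had an unadjusted p under 0.05. Of 6 neural markers, summed to between 60.4 and 226 CPM in WT and between 0.870 and 33.6 CPM in Atxn7l3-/- MEFs, 3 passed, all lower. Endothelial markers summed to at most 76.8 CPM, epithelial markers to at most 35.6 CPM, erythroid markers to at most 11.4 CPM and muscle markers to at most 73.2 CPM in any MEF library. Of these, the epithelial Krt18 (5.49, adjusted p 0.0189) and the erythroid Alas2 (5.42, adjusted p 0.0387, 0.0656 with the block) rose in Atxn7l3-/- MEFs, as did the mESC marker Tfcp2l1 (5.37, adjusted p 0.00591). Of the 4 mESC markers tested in MEFs, 1 had a log2 fold change above 0 and 3 below. Of the 3 epithelial markers tested, 2 were above 0 and 1 below, and Alas2 was the only erythroid marker tested. In Atxn7l3-/- mESCs, Epcam rose (1.45, adjusted p 0.0317) and the endothelial Tie1 (-4.14, adjusted p 0.0256) and the neural Tubb3 (-1.91, adjusted p 0.0307) fell. Of the 6 epithelial markers in mESCs, 3 were above 0 and 3 below. Krt8 was at 13.7 to 57.3 CPM in Atxn7l3-/- mESCs against 85.7 to 308 CPM in WT. Of the endothelial markers 1 was above 0 and 3 below, and of the neural markers 2 were above and 3 below. The part of these other cells in the values of the 10 genes was not tested.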

How the data were processed

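RNA was made into libraries with the TruSeq Stranded mRNA kit. Per the submitters' processing notes, reads were handled with bcl2fastq 2.17.1.14 and cutadapt 1.10, mapped to mm10 with STAR 2.5.3a and counted with HTSeq 0.6.1p1; the annotation and strand setting of the counting are not given in the sources used here. The authors deposited, for each cell type, a table of raw counts per gene and library, which were the values tested here. The deposited signal columns hold these counts divided by 1 DESeq2 1.16.1 size factor per library, and the same per kb of median transcript length, and served here only for the study's expression threshold. Columns of the authors' own Wald test (log2 fold changes, p-values and adjusted p-values) were not used.

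Counts were fitted for each cell type alone with edgeR 4.0.16 (TMM, filterByExpr, quasi-likelihood test) in R 4.3.3, with Benjamini-Hochberg adjustment over all genes tested and a call at an adjusted p of 0.05. For comparisons across cell types, the 26398 genes listed in both tables were joined by identifier, and 19326 passed the filter. Intervals are at 95%. Levels are TMM-normalized CPM, and a mean ± SD is over libraries. The scripts were tested on simulated counts. Replicates are separate blastocysts or embryos. All 10 genes are named, and from each list of other genes up to 4 called genes in each direction with the largest log2 fold change; genes named from marker lists are the lists' defining markers, chosen with their values seen. The members and lists were chosen with earlier results of these data known. Similarity is Pearson's r of log2(CPM + 0.5) among genes with a mean of at least 10 CPM in both cell types, a filter that Cdkn2b did not pass.

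Same-numbered MEF libraries deviated together from their group means (r 0.473, 0.161 and 0.240 over 15958 genes). Same-numbered mESC libraries did not (r 0.00777 and -0.172). The numbers were therefore taken to pair the MEF libraries in the alternative with the replicate block, although the labels give no more than a number. Calls, counts and figures come from the fit without the block unless the block is named. The value with the block is given where it changes a call of the 10 genes, and for the counts of the lists of other genes within MEFs. Alternatives were DESeq2 1.42.0, RLE and upper-quartile normalization, no filter or at least 10 counts in every library, a test against a 1.5-fold change, the block, each library left out in turn, and removal of each library's lowess trend (span 0.3) of log counts over GC content, alone and with the block. The GC correction across cell types and the removal of 2 mESC libraries without Y-linked reads were added after seeing the data. With these library totals, a floor of 3 counts corresponds to between 0.0605 and 0.0869 CPM, covering counting error only. RefSeq protein sequences were not used here.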

Additional observations from a re-analysis of the deposited data

Results flagged for a closer look

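The effect of the Atxn7l3-/- genotype differed between the cell types, by edgeR's test of the interaction term, for 3 of the 10 genes. By the same test Atxn7l3 mRNA itself also differed, by 5.97 (adjusted p 0.000664), with log2 fold changes of -6.65 in mESCs and -0.74 in MEFs. The MEF effect minus the mESC effect was -2.84 on the log2 scale for Cdkn2a, where all 3 Atxn7l3-/- libraries were above both WT libraries in mESCs and below all 3 WT libraries in MEFs. It was -2.46 for Cdkn2b and -3.24 for Bbc3, with the same order of libraries in both cell types. All 3 estimates kept their sign in every alternative run, and none passed without WT mESC replicate 1 or without WT mESC replicate 2. Groups of 2 or 3 libraries are too small for a test of single outlying libraries, and none was run.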

How the results depend on the processing

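In mESCs, where 1 of the 10 genes was called, the count was 6 by DESeq2 and 6 against the line with Y-linked reads (Trp53, Cdkn1a, Cdkn2a, Cdkn2b, Bbc3 and Pmaip1 in both), 5 with no filter and 0 against a 1.5-fold change. It ranged from 0 (without Atxn7l3-/- replicate 1, WT replicate 1 or WT replicate 2) to 5 (without Atxn7l3-/- replicate 2) when 1 library was left out. In MEFs, where 1 was called, the count was 4 in a fit of all 11 libraries and 4 by DESeq2, 2 with no filter, 2 with the replicate block, 0 after the GC correction and 0 against a 1.5-fold change. With 1 library left out it was 2 (Bax and Bbc3) without Atxn7l3-/- replicate 3 and 0 without any of the other 5. The difference between the cell types gave 5 calls by DESeq2 against 3, and from 0 to 6 with 1 library left out. WT MEFs against WT mESCs gave 4 to 7 calls with 1 library left out, and Atxn7l3-/- MEFs against Atxn7l3-/- mESCs gave 3 to 7 (7 without WT MEF replicate 2). Calls over all genes were not counted for the fit of all 11 libraries, MEFs with no filter or the alternatives across cell types. Of the fits with 1 library left out, they were counted only for mESCs without Atxn7l3-/- replicate 2. Over all genes, 1238 calls in mESCs became 3436 by DESeq2, 2995 with no filter, 3890 against the line with Y-linked reads and 2242 without Atxn7l3-/- replicate 2, and 1501 in MEFs became 3936 by DESeq2.

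Direction changed in 17 cases, none past the threshold. After the GC correction, log2 values were 0.198 for Ccng1 in mESCs (0.249 with the block), 0.060 for Trp53 (0.0712 with the block) and -0.308 for Ccng1 (-0.257 with the block) in MEFs, -0.241 for the Ccng1 difference between the cell types, -0.393 for Bbc3 between WT cells and -0.213 for Pmaip1 between Atxn7l3-/- cells. With the block alone, Pmaip1 in MEFs was 0.062 and Bbc3 between WT cells was -0.159. With 1 library left out, Ccng1 ranged from -0.317 to 0.147 in mESCs and from -0.197 to 0.427 in MEFs, Pmaip1 in MEFs from -0.720 to 0.101, the Ccng1 difference from -0.0579 to 0.567, and Mdm2 and Perp between WT cells from -0.0194 to 0.785 and from -0.175 to 1.55. The causes were not tested. In mESCs the block rests on 2 pairs that share only a number, and with it Trp53 was at -1.15 (adjusted p 0.0289). Where leaving out a WT mESC library left 1, the lone sample is assumed to vary like the other group. Over all named genes and counts, the remaining values kept their direction, 1055 on the same side of the threshold, 210 losing a call or lower and 47 gaining one or higher.

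With 2 or 3 libraries a group, the interval of the MEF log2 fold change was as wide as -4.15 to 0.99 (Perp). The lowest count of any of the 10 genes in a library was 141, and the part of depth in the widths was not tested.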

Other observations

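The other genes of the pathway also differed by cell type between WT MEFs and WT mESCs, where 53.9% of all genes tested were called and where cell type and run cannot be told apart. Of 19 regulators and relatives of p53, 3 were higher and 11 lower in MEFs, with a median log2 difference of -1.09 against 0.00 for all genes. The p53 relative Trp73 (-5.06), the checkpoint kinase gene Chek1 (-3.14), Npm1 (-2.34) and the deubiquitylase gene Usp7 (-2.18) were the lowest, and Trp63 (3.00) and the ubiquitin ligase genes Rfwd2 (1.41) and Rchy1 (0.69) were higher. With the block, Trp63 and Rchy1 did not pass (adjusted p 0.115 and 0.114). Of the 29 other p53 target genes, 5 were higher and 7 lower in MEFs, led by the death receptor gene Fas (5.71) and by Sfn (-4.41).

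Of 15 regulators of the INK4-ARF locus, 5 were higher in WT MEFs, among them the activator gene Ets1 (4.71) and the Polycomb gene Bmi1 (1.41), and 7 were lower, among them the Polycomb genes Cbx7 (-5.57), Suz12 (-3.79) and Eed (-1.70). Tbx2 was higher (4.88) and Tbx3 lower (-4.34). Of the 15 other CDK and RB genes, 7 were higher and 2 lower, led by the cyclin D2 gene Ccnd2 (8.64) and the INK4 gene Cdkn2c (4.09). Of 12 further BCL2 family genes, 5 were higher, led by Bcl2 (6.58), and 2 lower, Hrk (-7.04) and Bik (-3.52).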
